A study of Bos taurus with 12 samples.

Results

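The mitochondrial ribosomal proteins are encoded in the nuclear genome and are named with the prefix MRPL for the large subunit and MRPS for the small subunit of the mitochondrial ribosome. Probes were taken as members when their RefSeq transcript mapped to a gene symbol that starts with MRPL or MRPS followed by a digit. This gave 128 of 43653 probes and 76 of the 12787 genes with a symbol on the array, of which 47 genes (86 probes) had MRPL symbols and 29 genes (42 probes) had MRPS symbols. The mammary gland (MG) was sampled by biopsy in multiparous Holstein cows in midlactation, and 1 one-colour (Cy3) bovine oligonucleotide array was run per biopsy. CONT was the biopsy of day 0, when cows ate a lactation diet ad libitum, and REST was the biopsy of day 6 of feed restriction, when the feed offered covered 50% of the net energy needed for lactation. There were 6 arrays per group, and the labels name 6 cows, each biopsied in both periods, so that cow 1 of CONT and cow 1 of REST are the same animal. The series description counts 5 cows, the methods state that 1 cow was withdrawn for mastitis, and the labels do not say which, so the fit was repeated without each of the cows. All cows were of 1 breed, no cow remained unrestricted on day 6, and period and diet therefore cannot be told apart.

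Mitochondrial ribosomes translate the few proteins that mitochondrial DNA still encodes, all of them core subunits of the respiratory chain and of ATP synthase. Their RNA comes from mitochondrial DNA, but every one of their proteins is made in the cytosol and imported, so that the particle depends on both genomes. Some of these proteins descend from those of the bacterial ribosome, and others are found only in mitochondria. The secretory epithelium of the lactating udder is rich in mitochondria, which supply the ATP for milk synthesis.

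The level of a transcript is given as normalized signal, the log2 of its processed intensity minus the log2 of the array's 75th percentile, so that a value of 0 is the 75th percentile itself. Probes differ in brightness, so a level is compared between arrays for 1 probe and not between genes. A probe was tested when its signal was well above background on every array of at least 1 group. Of the 128 member probes, 116 were tested, and they covered 72 of the 76 genes, 45 MRPL and 27 MRPS. The genes without a tested probe were MRPL1, MRPL32, MRPS9 and MRPS35, each above background on 4 or 5 of 6 arrays of a group at most. Each gene is described by its tested probe with the highest mean signal, and for all 72 that probe passed the background criterion on each of the 12 arrays. The arrays of cows 5 and 6 lay on a slide of their own and were dimmer, with a 75th percentile between 73.2 and 117 against 252 to 390.0 on the other slides, and with 41.9 to 48.0% of spots well above background against 61.8 to 67.9%. The 75th percentile itself was higher in REST in 6 of 6 cows, by 0.30 ± 0.10 on the log2 scale (SD, n = 6), and every difference below is relative to it.

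Most mitoribosomal transcripts had a lower level under feed restriction, by small amounts. Of the 72 tested genes, 62 (86.1%) had a lower mean in REST, against 51.6% of all 7932 tested genes. With an adjusted p below 0.1 in a limma fit with cow as a block, 13 of the 72 (18.1%) changed. All 13 fell and none rose, where 16.2% of all tested genes changed, 9.27% downward and 6.95% upward. At an unadjusted p below 0.05, 19 members (26.4%) were lower and 0 higher, against 15.3% of all tested genes lower and 12.3% higher, 27.7% in all. The median change over the 72 genes was -0.12 on the log2 scale, with quartiles of -0.21 and -0.04 and a range of -0.50 to 0.18, and the median over all tested genes was -0.01. By cow, the median over the members was -0.08, -0.16, -0.08, -0.21, -0.12 and -0.12 for cows 1 to 6, so that it was below 0 in each animal. Between 45 (cow 1) and 60 (cow 4) of the 72 genes were lower in REST in a given cow. In all 6 cows, 20 genes were lower and 0 were higher, against 10.8% and 7.50% of all tested genes.

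The count of 13 was lower without the pairing by cow and in each fit with 1 cow left out. Without cow as a block 3 members passed, MRPL24, MRPL16 and MRPS25, where 4.41% of all genes passed, 2.81% downward and 1.60% upward. These were also the 3 genes whose CONT and REST values did not overlap, where 1.66% of all genes did not overlap with REST lower and 0.618% with REST higher. With 1 cow left out, the number of members called was 5 without cow 1, 3 without cow 2, 9 without cow 3, 3 without cow 4, 12 without cow 5 and 7 without cow 6. The share of all genes called in these fits moved too, and was 8.59, 5.63, 11.9, 6.42, 16.4 and 12.4% in the same order. MRPS25 and MRPL24 were called in each of these 6 fits, and the other 11 genes lost the call in at least 1 of them. Over all 20 alternatives to the main settings, MRPS25 was called in 20, MRPL24 in 19, MRPS21 in 15, MRPL41 in 14, MRPL16, MRPL37 and MRPS28 in 13 each, MRPL12 in 12, MRPL4 and MRPS36 in 10 each, MRPS11 in 9, and MRPL28 and MRPS24 in 7 each. After normexp background correction with the same percentile shift, 6 members passed (5 lower and 1 higher), 42 of 72 had a lower mean and the median change was -0.01, while 18.5% of all genes were called.

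**Figure D1:**
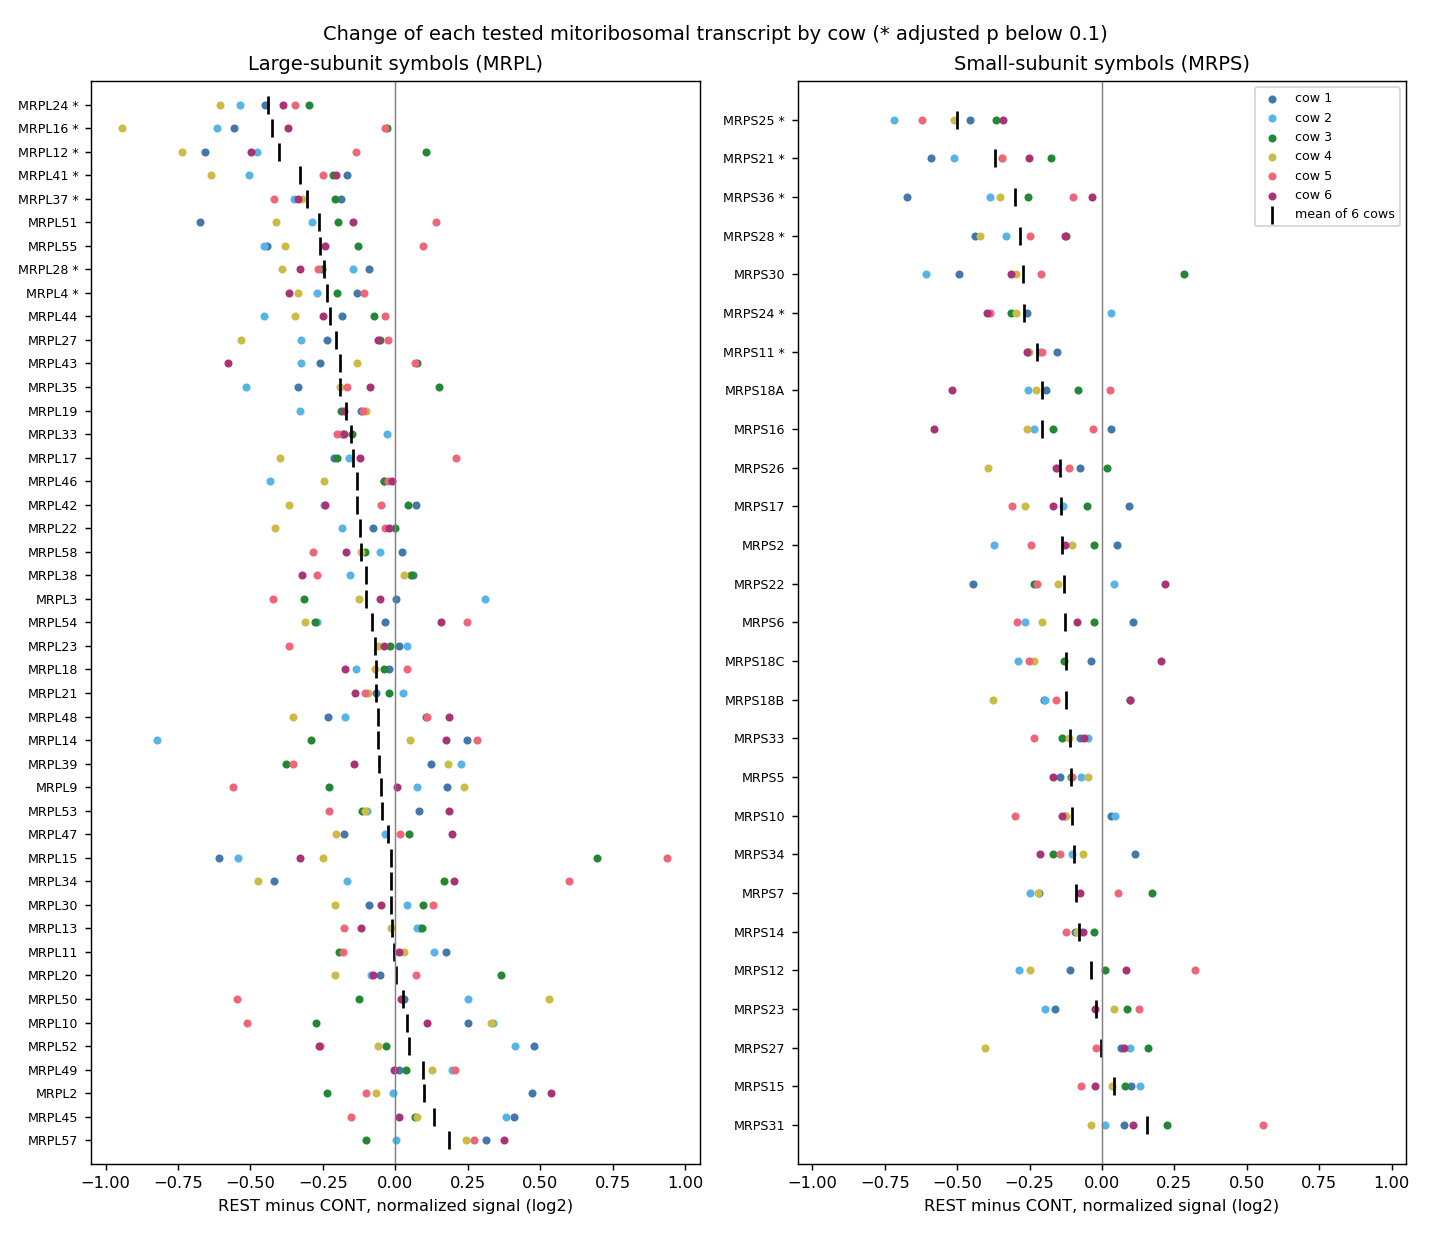
Change of each of the 72 tested mitoribosomal transcripts, REST minus CONT in normalized signal (log2), with 1 coloured point per cow, a black bar for the mean of 6 cows and an asterisk for an adjusted p below 0.1. Most bars lie left of 0, from -0.50 for MRPS25 to 0.18 for MRPL57, and the points of MRPL15 spread most widely across cows.

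Among the MRPL symbols, 7 of 45 tested genes fell (15.6%) and 37 (82.2%) had a lower mean in REST. Over all tested genes, 16.2% were called, 9.27% downward, and 51.6% had a lower mean. MRPL24 is a large-subunit protein with a bacterial homologue. Its normalized signal was 3.35, 3.29, 3.05, 3.32, 3.1 and 3.24 in CONT and 2.89, 2.75, 2.76, 2.71, 2.75 and 2.85 in REST, for cows 1 to 6. Every REST value was below every CONT value. The mean fell by 0.44 on the log2 scale (SE 0.077, adjusted p = 0.018), and the adjusted p was 0.022 without the block.

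MRPL16, which sits close to the peptidyl transferase centre where peptide bonds form, was 3.42, 3.23, 2.94, 3.46, 2.95 and 3.07 in CONT and 2.86, 2.62, 2.91, 2.51, 2.91 and 2.70 in REST, for cows 1 to 6. The groups were separate, but by little, since cows 3 and 5 differed by only -0.03 and -0.04 between periods while cow 4 differed by -0.94. The mean fell by 0.42 (SE 0.129, adjusted p = 0.078). MRPL12, the homologue of the bacterial L7/L12 stalk protein that recruits translation factors, ranged from -0.80 to 0.11 in CONT (median -0.32) and from -0.95 to -0.37 in REST (median -0.79). These groups overlapped, and cow 3 was higher in REST by 0.11 while the other 5 cows were lower. The mean fell by 0.40 (SE 0.121, adjusted p = 0.076, or 0.246 without the block).

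MRPL41 and MRPL37 are proteins found only in mitochondrial ribosomes. MRPL41 ranged from 5.49 to 5.84 in CONT (median 5.73) and from 5.11 to 5.66 in REST (median 5.34). MRPL37 ranged from 1.77 to 2.60 in CONT (median 2.0) and from 1.44 to 2.28 in REST (median 1.70). Cow 4 had the highest MRPL37 value in both periods. The groups overlapped for both genes, and within each of the 6 cows both were lower in REST. MRPL41 fell by 0.33 (SE 0.091, adjusted p = 0.059) and MRPL37 by 0.30 (SE 0.074, adjusted p = 0.043).

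MRPL28 and MRPL4 both have bacterial homologues, and MRPL4 lines the tunnel through which the new chain leaves the ribosome. MRPL28 went from 0.10 to 0.51 across cows in CONT (median 0.37) and from 0.01 to 0.20 in REST (median 0.10). MRPL4 went from 2.77 to 2.98 in CONT (median 2.88) and from 2.50 to 2.85 in REST (median 2.64). Each was lower in REST in all 6 cows with some overlap between the groups, and the means fell by 0.25 (SE 0.077, adjusted p = 0.082) and 0.24 (SE 0.076, adjusted p = 0.089). MRPL28 lost its call whichever cow was left out, with changes of -0.28 to -0.22 and adjusted p-values of 0.114 to 0.207 in those 6 fits. MRPL4 lost it without cow 1, 2, 3, 4 or 6 (adjusted p up to 0.214) and without the block (0.187). MRPL4 also lost it under quantile (0.123) or median scaling (0.118), under normexp with the percentile shift and without a filter on dim probes.

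In the small subunit, 6 of 27 tested genes fell (22.2%) and 25 (92.6%) had a lower mean in REST. MRPS25, a protein found only in mitochondrial ribosomes, had the largest change of all members. Its normalized signal was -0.55, -0.45, -0.51, -0.35, -0.22 and -0.45 in CONT and -1.01, -1.16, -0.87, -0.86, -0.85 and -0.79 in REST, for cows 1 to 6. The groups did not overlap. The mean fell by 0.50 (SE 0.082, adjusted p = 0.014, or 0.018 without the block), a change of -29.4% on the linear scale.

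MRPS21, the homologue of bacterial S21, ranged from 0.79 to 1.51 in CONT (median 1.14) and from 0.49 to 0.92 in REST (median 0.86). It was lower in REST in 6 of 6 cows, and the cows on the dimmer slide, 5 and 6, had the lowest values in both periods. The mean fell by 0.37 (SE 0.083, adjusted p = 0.035). MRPS28, which takes the place of bacterial S1, ranged from 2.66 to 3.26 in CONT (median 3.13) and from 2.54 to 3.01 in REST (median 2.81). Cow 3 was lowest in both periods, all 6 cows were lower in REST, and the mean fell by 0.28 (SE 0.081, adjusted p = 0.066).

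MRPS24, the homologue of the S3 protein at the mRNA entry, ranged from 0.80 to 1.52 in CONT (median 1.17) and from 0.40 to 1.34 in REST (median 0.89). Cow 2 differed by 0.03 in the opposite direction, and the mean fell by 0.27 (SE 0.084, adjusted p = 0.081). The call was lost without cow 1, 3, 4, 5 or 6 (adjusted p up to 0.181) and without the block (0.410). It was lost with cow as a random block (0.121), with slide as the block (0.325) and under the median shift (0.103). The same held for both normexp settings, no filter on dim probes and the methods' t-test (0.444). MRPS11, the homologue of the S11 protein of the small-subunit platform, ranged from 1.42 to 1.64 in CONT (median 1.53) and from 1.16 to 1.48 in REST (median 1.29). Its change was the most even across animals among the 13 genes, between -0.26 and -0.16 in all 6 cows with an SD of 0.040. The mean fell by 0.22 (SE 0.070, adjusted p = 0.081), but like MRPL28 it was called in none of the 6 fits without a cow, where the adjusted p lay between 0.109 and 0.184.

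**Figure D2:**
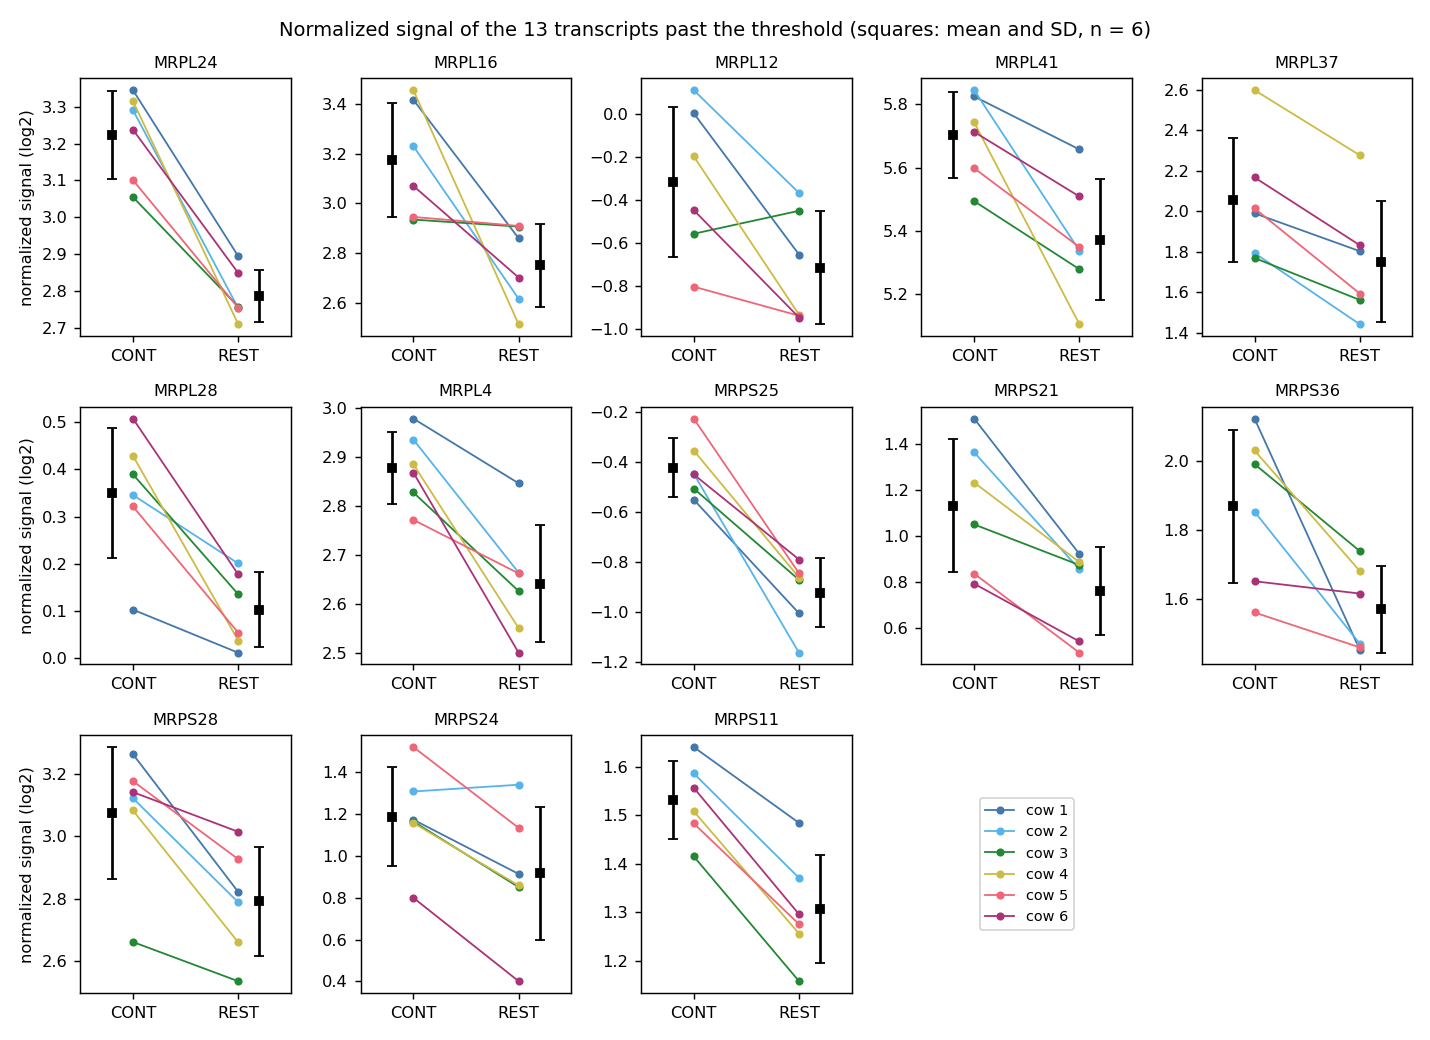
Normalized signal (log2, with a separate axis range for each gene) in CONT and REST for the 13 transcripts past the threshold, with a coloured line per cow and black squares for the mean and SD of 6 cows. The lines fall in all 6 cows except for cow 3 in MRPL12 and cow 2 in MRPS24, and the groups are separate in MRPL24, MRPL16 and MRPS25.

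The symbols do not map perfectly onto the subunits, and the members were counted by symbol. MRPS36 has been assigned to the 2-oxoglutarate (alpha-ketoglutarate) dehydrogenase complex of the citric acid cycle, and structures place MRPS18A and MRPS30 in the large subunit. MRPS36 ranged from 1.56 to 2.13 in CONT (median 1.92) and from 1.45 to 1.74 in REST (median 1.54), was lower in 6 of 6 cows and fell by 0.30 (SE 0.098, adjusted p = 0.092). MRPS30 and MRPS18A had mean differences of -0.27 (adjusted p = 0.171) and -0.21 (adjusted p = 0.169), with 5 of 6 cows lower in each, and did not pass. MRPS30 passed without cow 3, the cow in which it was higher in REST, with a difference of -0.39 (adjusted p = 0.064), and MRPS18A passed with cow as a random block, at -0.21 (adjusted p = 0.091).

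The large and small subunits differed little in the size of their change. The median change was -0.08 for MRPL and -0.13 for MRPS genes, a difference of 0.05. By cow, the MRPL median ranged from -0.19 to -0.07 and the MRPS median from -0.24 to -0.08. The MRPS median was the lower of the pair in each cow, by between 0.01 and 0.05. On the 3 slides the medians were -0.11, -0.12 and -0.13 for MRPL and -0.16, -0.12 and -0.15 for MRPS genes, and -0.01, -0.02 and -0.01 for all tested genes. The difference between subunits was 0.02 when MRPS18A and MRPS30 were counted with the large subunit and MRPS36 was left out, and -0.01 when cow 5 was left out of the fit.

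Proteins inherited from bacteria and proteins found only in mitochondria had similar median changes. In the large subunit, 5 of 27 genes with a bacterial homologue fell (median change -0.07, 24 lower) and 2 of 18 mitochondria-only genes fell (median -0.09, 13 lower). In the small subunit the numbers were 4 of 15 (median -0.13, 14 lower) and 1 of 9 (median -0.11, 8 lower). The shares that fell were 18.5, 11.1, 26.7 and 11.1% in the same order. Over all tested genes, 9.27% were called lower and 51.6% had a lower mean. No test was made between these classes.

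Of the 59 genes that did not pass, 9 were lower in all 6 cows: MRPL44, MRPL27, MRPL19, MRPL33, MRPL46, MRPL22, MRPS33, MRPS5 and MRPS14. Their mean differences ran from -0.22 (MRPL44, adjusted p = 0.128) to -0.08 (MRPS14, adjusted p = 0.494). MRPL44 did pass with cow as a random block (-0.22, adjusted p = 0.078) and after normexp correction with the percentile shift (-0.22, adjusted p = 0.089). MRPL55 and MRPL51 had mean differences of -0.26 each (adjusted p = 0.121 and 0.157, lower in 5 of 6 cows) and passed without cow 5, at -0.33 (adjusted p = 0.067) and -0.34 (adjusted p = 0.081), and MRPL55 also passed with a trended and robust prior (adjusted p = 0.092). MRPL17 was between 3.99 and 4.46 in CONT and 3.60 and 4.34 in REST, a mean difference of -0.15 (adjusted p = 0.332). MRPS26 was between 3.92 and 4.25 in CONT and 3.74 and 4.09 in REST, a mean difference of -0.15 (adjusted p = 0.272), and MRPS33 had a mean difference of -0.11 (adjusted p = 0.343). In these 3 genes the groups overlapped. MRPL27 had a mean difference of -0.21 (adjusted p = 0.187).

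A higher mean in REST was seen for 10 members, none of which passed. They were MRPL20, MRPL50, MRPL10, MRPS15, MRPL52, MRPL49, MRPL2, MRPL45, MRPS31 and MRPL57, with mean differences from 0.00 to 0.18. MRPL57 had the largest difference of them, with levels between -0.10 and 0.60 in CONT and between 0.21 and 0.58 in REST (adjusted p = 0.220), with cow 3 lower in REST. MRPL45, thought to tether the ribosome to the inner membrane, had a mean difference of 0.13 (adjusted p = 0.405). It was the only member called upward under the alternatives run, at 0.22 (adjusted p = 0.097) after normexp correction with the percentile shift.

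The spread between animals was wide for a few genes. MRPL15 was -0.61, -0.54, 0.70, -0.25, 0.94 and -0.33 (REST minus CONT, cows 1 to 6), an SD of 0.66 around a mean near 0, and its lowest level was the CONT value of cow 5, -0.97. The SD of the differences was 0.43 for MRPL14, 0.41 for MRPL34 and 0.36 for MRPL50 and MRPL16. Apart from MRPL16 none of these passed.

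For 34 genes, more than 1 probe was tested. All probes of a gene had a lower mean in REST for 25 of them and a higher mean for 3 (MRPL45, MRPL57 and MRPS31), and for 6 the probes differed in sign (MRPL10, MRPL20, MRPL30, MRPL49, MRPL51 and MRPL53). Of the member probes, 18 passed and all 18 were lower in REST, where 16.0% of all tested probes passed, 8.78% downward and 7.22% upward. No gene was called in both directions. Every tested probe passed for MRPL24 (3 probes, -0.44, -0.44 and -0.42), MRPL37 and MRPL41 (2 probes each). MRPL12, MRPL28 and MRPS11 passed by 1 of 2 probes and MRPS21 by 1 of 3, and their remaining probes were also lower. The second probe of MRPS11 gave -0.22 with an adjusted p of 0.106, while that of MRPL12 gave only -0.19. Taking any probe, 14 members were called, where 20.5% of all genes were. The added gene was MRPL38, a mitochondria-only protein whose 4 probes gave -0.46 (adjusted p = 0.018), -0.25, -0.19 and, for the probe used above, -0.10 (adjusted p = 0.482).

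**Figure D3:**
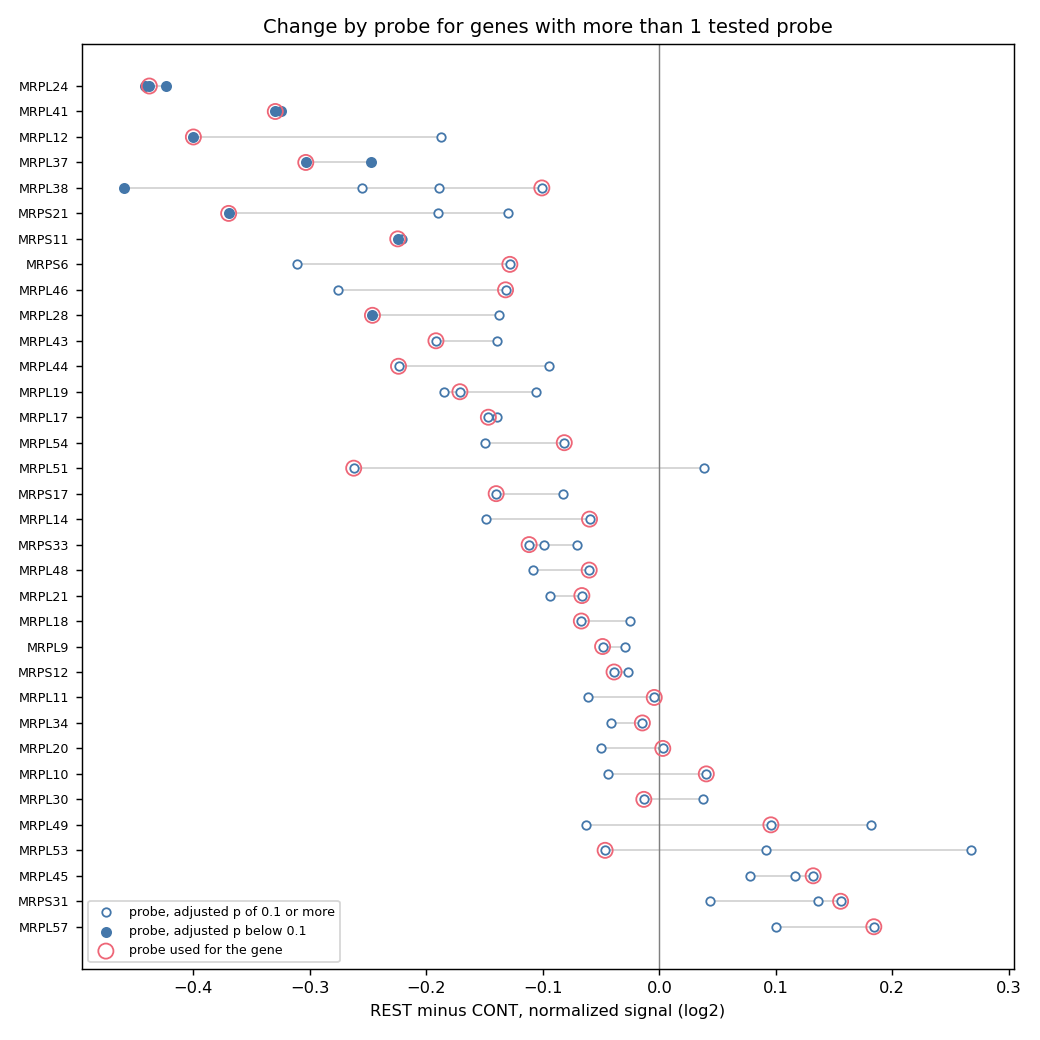
Change of every tested probe (REST minus CONT, log2) for the 34 genes with more than 1 tested probe. Filled points have an adjusted p below 0.1, red rings mark the probe used for the gene and grey lines join the probes of a gene; the 3 probes of MRPL24 lie together near -0.44, whereas the 4 of MRPL38 spread from -0.46 to -0.10.

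The other genes of the mitochondrial translation system were counted in the same fit. Among 5 ribosomal proteins with other symbols, AURKAIP1, a small-subunit protein first named as a kinase-interacting protein, fell by 0.28 (SE 0.085, adjusted p = 0.079, lower in 6 of 6 cows). It lost the call without the block (adjusted p = 0.151) and when cow 1, 2, 3, 4 or 6 was left out, at an adjusted p of up to 0.210. AURKAIP1 was called in 10 of the 20 alternatives. DAP3, CHCHD1, GADD45GIP1 and PTCD3 had mean differences of -0.12 to 0.03 and did not pass. Of 11 translation factors none passed in the limma fit, and 1 did at an unadjusted p below 0.05, where 27.7% of all tested genes did. The elongation factor TUFM had a mean difference of -0.14 (adjusted p = 0.302, lower in 6 of 6 cows), and the factors GFM1 and GFM2 had -0.23 and -0.19. Of 19 assembly factors and rRNA-modifying enzymes none passed, nor did any at an unadjusted p below 0.05. After normexp correction with the percentile shift 1 of them, NGRN, passed upward (0.32, adjusted p = 0.062). MALSU1, which holds the immature large subunit apart from the small, had a mean difference of -0.23 (adjusted p = 0.182), and TFB1M, the methyltransferase of the small-subunit rRNA, had 0.17 (adjusted p = 0.191, higher in 6 of 6 cows). The median changes of these 3 lists were -0.05, -0.03 and -0.01, the last near the -0.01 of all tested genes.

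Of 12 genes for mitochondrial DNA maintenance and transcription, HSD17B10 passed (8.33%), where 16.2% of all tested genes did. ELAC2 and PNPT1 were tested only through REST, being well above background on 4 and 5 CONT arrays, and had mean differences of 0.15 (adjusted p = 0.751) and 0.06 (adjusted p = 0.856). HSD17B10 is both an enzyme of isoleucine breakdown and a subunit of mitochondrial RNase P, which cuts tRNAs out of mitochondrial transcripts. The normalized signal of HSD17B10 went from 5.65 ± 0.09 in CONT to 5.40 ± 0.15 in REST (SD, n = 6). This was a fall of 0.26 (SE 0.079, adjusted p = 0.080, lower in 6 of 6 cows). The call was lost without the block (adjusted p = 0.191) and when cow 1, 2, 3, 4 or 6 was left out. HSD17B10 was called in 10 of the 20 alternatives. The mitochondrial RNA polymerase POLRMT had a mean difference of -0.22 (adjusted p = 0.133, lower in 6 of 6 cows), and the DNA packaging and transcription factor TFAM had -0.14 (adjusted p = 0.636).

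Among 9 tested regulators of mitochondrial biogenesis, ESRRA rose and none fell (11.1% called, against 16.2% of all tested genes). ESRRA encodes a nuclear receptor that acts on genes of oxidative metabolism, and its level went from 1.63 ± 0.29 in CONT to 2.05 ± 0.38 in REST, a rise of 0.42 (SE 0.107, adjusted p = 0.050, higher in 6 of 6 cows). The call was lost without the block (adjusted p = 0.257) and without cow 1, 2 or 4, at adjusted p-values of 0.112 to 0.134. ESRRA also lost it with slide as the block, with the methods' t-test and without a filter on dim probes. Its coactivator PPARGC1A had the largest mean difference of the list, -0.85, but a wide spread between cows (0.18 ± 0.84 in CONT, -0.68 ± 0.45 in REST, adjusted p = 0.108). It passed downward under the median shift (-0.85, adjusted p = 0.097) and under normexp with the percentile shift (-0.74, adjusted p = 0.050) or with quantile normalization (-0.66, adjusted p = 0.066). YY1, a transcription factor, had a mean difference of 0.21 (adjusted p = 0.180) and passed upward under quantile normalization and both normexp settings, at 0.25 to 0.31. The median change of the list was 0.05, and it was -0.04 after normexp correction with the percentile shift.

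Nuclear-encoded subunits of complexes I, III and IV and of ATP synthase assemble with products of mitochondrial ribosomes, whereas complex II (SDHA to SDHD) is made of nuclear-encoded proteins alone. Of 73 tested genes of all these complexes, 51 fell (69.9%) and 0 rose, 71 had a lower mean and 58 were lower in all 6 cows. Over all tested genes, 9.27% fell and 6.95% rose, 51.6% had a lower mean and 10.8% were lower in all 6 cows. Their median change was -0.30, and it lay between -0.38 and -0.19 by cow, lower than the median of the mitoribosomal genes in each cow. Without the block 22 passed, where 4.41% of all tested genes did. With 1 cow left out between 18 (without cow 2) and 41 (without cow 5) passed, where 5.63% and 16.4% of all tested genes did. After normexp correction with the percentile shift, 19 passed, where 18.5% of all tested genes did. The median change of the list was then -0.18, beside -0.01 for the mitoribosomal genes. The 2 lists share all arrays, and no test was made between them.

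**Figure D4:**
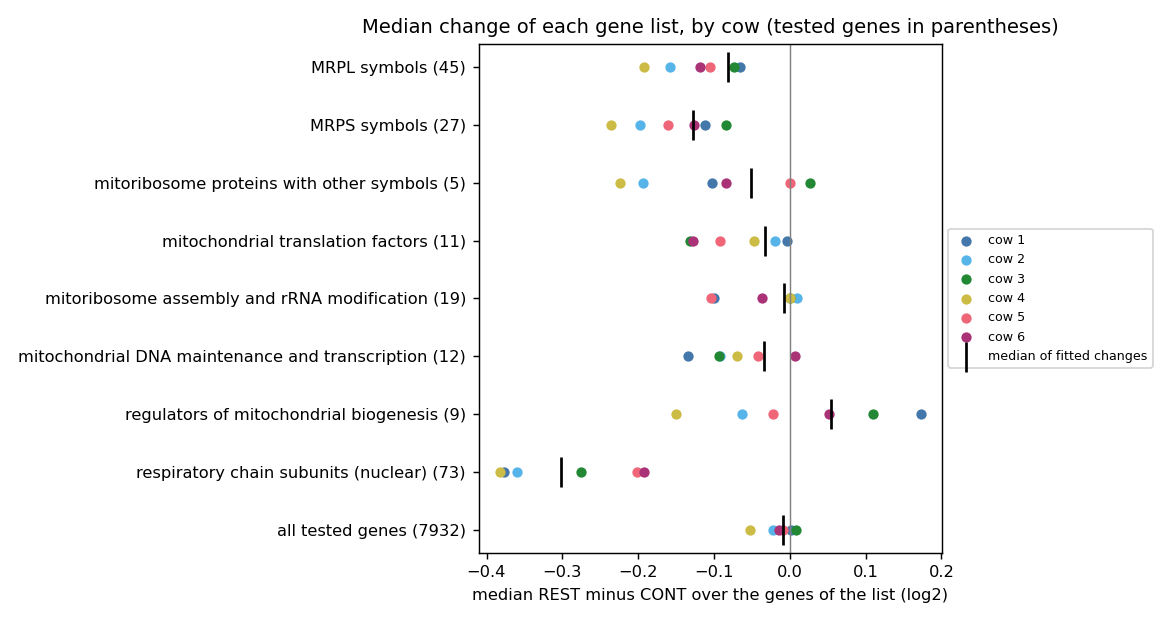
Median change (REST minus CONT, log2) over the tested genes of each list, with 1 coloured point per cow and a black bar for the median of the fitted changes over all cows. The points of the MRPL and MRPS lists lie left of 0 in all 6 cows, and their bars lie between all tested genes (-0.01) and the respiratory chain subunits (-0.30).

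Whole biopsies were measured, so that fewer cells of a type and less RNA per cell cannot be told apart. Some markers of cell types also changed in the fit with cow as a block, but of the marker genes named here only VWF and CLDN5 passed without the block (adjusted p = 0.054 and 0.057). With the block 16.2% of all tested genes were called, 9.27% lower and 6.95% higher, and without it 4.41%. The milk protein genes CSN1S1 and CSN3 fell by 0.26 and 0.28, and the luminal keratins KRT8 and KRT18 rose by 0.72 and 0.52, among 10 tested luminal and milk protein markers. The summed linear signal of that list, in units of the 75th percentile, was 4492 to 5685 in CONT and 3692 to 4735 in REST, lower in 6 of 6 cows. That of the 72 mitoribosomal genes was 358 to 418 in CONT and 329 to 388 in REST, also lower in 6 of 6 cows, and that of all 7932 tested genes was 74837 to 83701 in CONT and 71600 to 82747 in REST, higher in 1 cow. Of 7 endothelial markers, VWF and CLDN5 rose, by 0.54 and 0.74, and the summed signal went from a range of 28.5 to 42.7 to one of 39.8 to 56.6, higher in 6 of 6 cows. Of 10 leukocyte markers, CD3E rose (sums of 30.3 to 38.1 in CONT and 32.1 to 39.9 in REST, higher in 4 cows). CD8A was well above background on 5 CONT and 6 REST arrays, so that it was tested only through REST, and its mean difference of 0.45 is given as a value alone. Of 8 myoepithelial markers, CNN1 and ACTA2 fell and KRT17 rose (sums of 121 to 224 and 112 to 213). None of 7 fibroblast markers passed in the limma fit, 2 did at an unadjusted p below 0.05 (27.7% of all tested genes did), and their sums were 34.6 to 66 in CONT and 27.1 to 76.1 in REST. Of the list of adipocyte markers only CIDEA and FABP4 were tested, and both fell (sums of 216 to 406 and 181 to 295). Of the untested ones PLIN1 was above background on 0 arrays, LEP on at most 2 and CIDEC on at most 4 arrays of each group. Whether CIDEA and FABP4 come from adipocytes in these biopsies was not tested. Muscle and red cell markers were mostly at background, with CKM, which fell by 0.36, and HBA, with a mean difference of -0.33 (adjusted p = 0.108) as the tested exceptions beside ACTA1. The part of these shifts in the mitoribosomal changes was not tested.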

How the data were processed

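Total RNA of 12 biopsies was labelled with Cy3 and hybridized to 3 slides of 4 arrays each by the authors. Per the file headers, intensities were extracted with Agilent Feature Extraction 11.0.1.1. The deposited intensity values are linear, background-subtracted and not scaled between arrays, and the deposited value table equalled them in all 542640 cells (column medians of 10.2 to 56.3). Its scale and direction are therefore those of the processed signal.

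From these, log2 of the processed signal minus each array's 75th percentile over 43803 non-control spots was computed. Spots marked as non-uniform or as outliers (1 to 13 per array) were left out, no spot was saturated, and repeat spots were averaged. Gene symbols were assigned by matching RefSeq accessions to a RefSeq gene table, which named 27131 probes (62.2%). The table's assembly differed from that of the array design, so no coordinates are given. Differential expression was tested over 19406 probes with limma 3.58.1 (lmFit and eBayes) in R 4.3.3, with cow as a block and Benjamini-Hochberg adjustment over all of them, and significance was set at an adjusted p below 0.1, as in the study's methods. These methods do not mention pairing. The numbers pair the samples through the animal named in the labels, and deviations from the group means correlated at 0.356 to 0.574 within cows and at -0.33 to 0.135 between cows. Both arrays of a cow lay on 1 slide, so the block also takes up the slide. The number of arrays limits the precision.

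The genes named are members past the threshold (up to 12 MRPL and 10 MRPS by size of change), the brightest 2 of each subunit, MRPS18A, MRPS30, MRPS36 and MRPL12, and up to 4 called genes of each related list; others named were chosen after their values were seen. The members and gene lists were chosen with earlier results of these data known. Alternatives were other blocks, scalings, background corrections (normexp with an offset of 50), filters and probe rules, the methods' t-test, and each cow left out. Normexp used the median spot signal, with the median local background, since the mean signal was not among the columns used here. The fit was tested on simulated data.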

Additional observations from a re-analysis of the deposited data

Results flagged for a closer look

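The CONT value of cow 3 for MRPS28 stood apart from the rest of its group. It was 2.66 on the normalized log2 scale, while the other 5 CONT values lay between 3.08 and 3.26, and the gap made up 0.700 of the range of the group, above Dixon's critical value for 6 samples at the 95% level. Of 40 groups of 6 samples checked (CONT and REST of the 18 named members, the 75th percentile of the arrays and their share of spots well above background), 1 was above the critical value, and chance puts about 1 in 20 groups above it. Cow 3 also had the lowest REST value of MRPS28, and without cow 3 the gene remained past the threshold.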

How the results depend on the processing

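The number of mitoribosomal genes called fell from 13 (7 MRPL and 6 MRPS) to 3 (2 and 1) without the replicate block, to 6 (4 and 2) after normexp correction with the percentile shift, to 5 (3 and 2) with the methods' t-test, which took no block, and to 1 (0 and 1, MRPS25) without a filter on dim probes, where 1.16% of 12787 genes were called. The share of all genes called was 4.41% without the block, 18.5% with normexp and the percentile shift and 4.19% with the t-test. With normexp and quantile normalization, 3 MRPS genes were called. With 1 cow left out, the ranges were 3 to 12 in all, 1 to 8 for MRPL and 2 to 4 for MRPS, and 1 to 3 in all when the block was also dropped, an alternative chosen after seeing the data under which 1.06 to 3.34% of all genes were called. The median changes under normexp with the percentile shift were -0.0099 for MRPL and -0.032 for MRPS. The difference between the subunit medians, 0.05, was 0.022 under that setting, 0.019 with the mean of all probes of a gene, 0.023 with MRPS18A, MRPS30 and MRPS36 reassigned, and -0.014 to 0.055 with 1 cow left out, reversing without cow 5. MRPS33 reversed to 0.019 (adjusted p = 0.885) under normexp with the percentile shift. The causes of these shifts were not tested. Random cow blocks, slide blocks, quantile or median scaling, the deposited value table, stricter background filters, kept spots and a trended prior gave 9 to 14 called members, where 9.75 to 19.1% of all genes were called. Of 360 values of the 18 named members over 20 alternatives, 359 were lower in REST. This number is not separate support. Alternatives that change only the block, the filter, the prior or the test keep each fitted change of the main fit. Most of these members were also named because they had passed the threshold. No setting moved the median of all genes by more than 0.1. The arrays of cows 5 and 6 had the lowest signal over background.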
